A study of Mus musculus with 104 samples.

Results

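Mouse embryonic stem cells of the line named ZHBTc4 were followed over 4 passages in 2MYCP medium with doxycycline, and the later passages were set against the first. The 2 libraries of passages 3 and 4 were compared with the 2 libraries of passages 1 and 2, all 4 chosen by their labels from one table. These 6 libraries, of 104 in the series, include 2 from S/L medium that served as references and entered no test: one with doxycycline at passage 1 and one without doxycycline, whose label gives no passage. Bulk RNA-seq counts per gene were available for each. ZHBTc4 is known as a line in which both copies of Pou5f1 (Oct4) are disrupted and a Pou5f1 transgene, shut off by doxycycline, keeps the cells pluripotent. The titles name ZHBTc4, while the cell line field of every one of these libraries reads TC1-GFP and the genotype field reads WT. The line is a single engineered line, and each passage was sequenced once. The labels do not expand 2MYCP or S/L, and they do not say how long a passage lasted or whether feeder cells were present. Libraries of the line at passage 12 in 2MYCP, 1 with and 1 without doxycycline, and TC1 cells in 2MYCP without doxycycline at passages 4, 6, 1 and 2 came from other tables.

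Oct4 holds embryonic stem cells in the pluripotent state together with Sox2 and Nanog. When it is withdrawn, mouse embryonic stem cells are known to turn towards trophectoderm, the outer layer of the blastocyst that is marked by Cdx2, Gata3 and simple epithelial keratins. A small share of cells in such cultures normally passes through a state that resembles the 2-cell embryo, marked by the Zscan4 family, Zfp352 and Tcstv3.

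The targeted gene was measured first. Pou5f1 (chr17:35506032-35510777, mm10) stood at 0.193 and 0.700 CPM (counts scaled to a common library total) at passages 3 and 4, against 16.99 and 5.09 CPM at passages 1 and 2. In S/L it stood at 151 CPM with doxycycline and 669 CPM without. Both later libraries were thus below both first ones, and all 4 were below the S/L libraries. The log2 fold change of later over first passages was -4.56 (SE 0.84), which did not pass the test after adjustment (edgeR quasi-likelihood test, adjusted p = 0.0841). These counts cannot separate the transgene from the endogenous locus.

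The later libraries held 20842323 and 25138178 counts at passages 3 and 4, the first 14232202 and 41840717 at passages 1 and 2, and S/L 18772708 with and 35927714 without doxycycline. The passages within a group are successive, not replicate cultures, so the p-values measure the spread between neighbouring passages. That spread was unequal. Passages 3 and 4 differed at least 2-fold in 4.80% of the 15140 genes tested, and passages 1 and 2 in 35.7%. The Pearson correlation of log2(CPM + 0.5) across genes was 0.983 within the later pair and 0.899 within the first. Ribosomal protein genes took 7.04% and 6.03% of counts at passages 3 and 4, against 11.3% and 4.25% at passages 1 and 2. Each gene's log2 level was also taken relative to its mean over all libraries used, those of other tables included. The slope of this relative level on log gene length was -0.48 and -0.05, against -1.11 and 0.79. The part of the ribosomal share in the results was not tested; with the length trend removed, 73 genes were called, among them 32 of the 37 described next.

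With passages 3 and 4 set against 1 and 2, 8 genes rose (0.0528% of those tested) and 29 fell (0.192%) at an adjusted p under 0.05, while 2530 had an unadjusted p under 0.05. The 37 genes shared a narrow range of adjusted p, 0.0412 to 0.0490. Of the 15140 genes tested, DESeq2's Wald test called 357 higher and 967 lower, the 37 among them. Leaving out a library of the first pair raised the calls to 3865 (without passage 1) or 6497 (without passage 2), the 37 among both; without passage 3 the calls were 162 and without passage 4 they were 108. Levels are also described by a rule chosen after the values were seen: a gene stands apart when both later libraries lie on one side of both first libraries and the fitted difference is at least 2-fold. By it 1435 genes (9.48%) stood higher and 2334 (15.4%) stood lower in the later passages. These are the shares to set beside each list count below.

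The genes that rose were chemokines and interferon-induced genes, with 1 matrix gene. Ccl2 and Ccl7, which draw monocytes, Cxcl1 and Cxcl5, which draw neutrophils, Isg15, Usp18 and Irf7 of the type I interferon response, and Dcn, which encodes the collagen-binding proteoglycan decorin, made up the 8. Those that fell included 9 members of the list of 2-cell genes and 9 numbered gene models (Gm8300 and Gm5039 counted in both). Genes of the pluripotent cell and of the primitive endoderm and basement membrane lists were among them as well. In 22 of the 29 the level was below 1 CPM in both later libraries. All 29 had both later libraries below both S/L libraries, and 22 of them had both first libraries above both S/L libraries. With passage entered as a number in place of the pairs, 219 genes were called, 10 of the 37 among them.

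**Figure D1:**
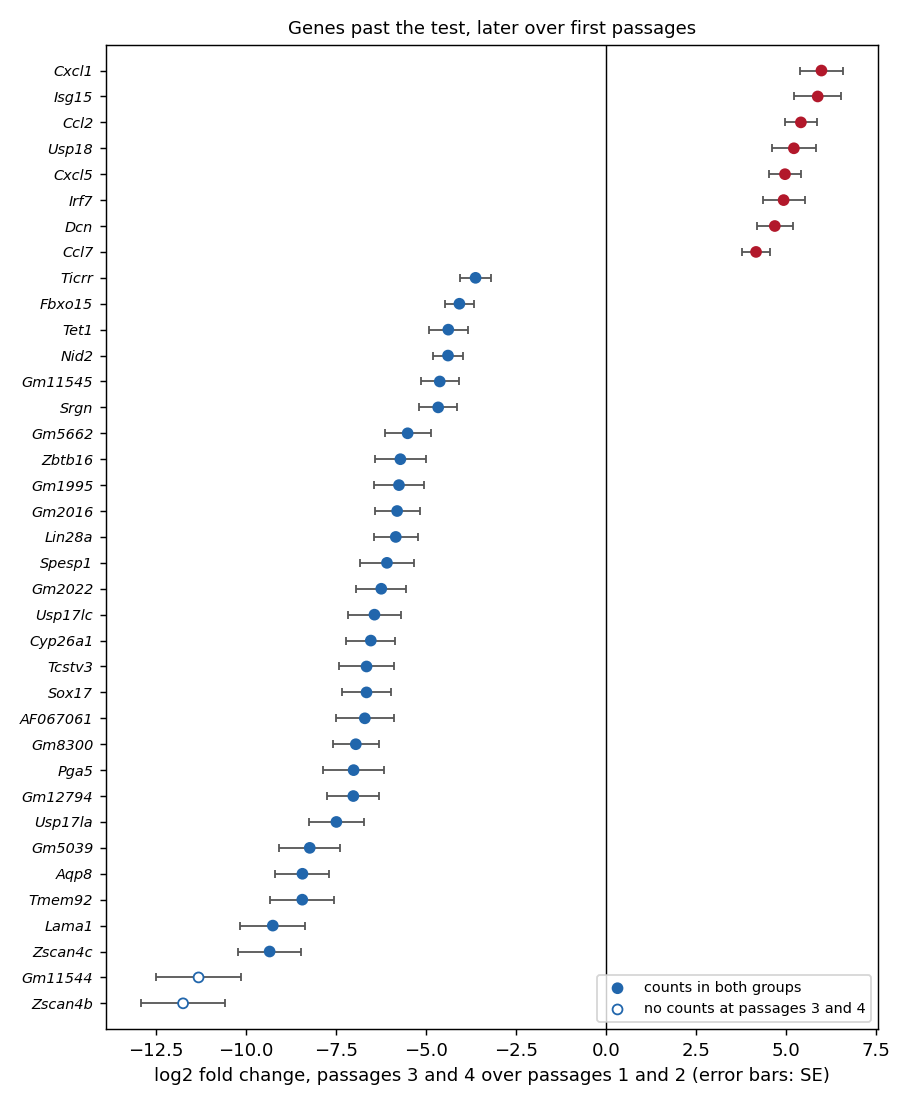
Log2 fold change of passages 3 and 4 over passages 1 and 2 for the 37 genes past the test, with the standard error as bars. The 8 genes that rose lie between 4.17 and 5.99 and the 29 that fell at -3.62 or lower; open circles mark Zscan4b and Gm11544, which had no counts at passages 3 and 4, so that their fitted values depend on the prior count.

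Genes of the 2-cell state stood lower in the later passages. Zscan4c, a zinc finger gene known for telomere elongation in stem cells, had 0.0963 and 0.0777 CPM at passages 3 and 4, against 87.1 and 30.6 CPM at passages 1 and 2. The groups did not overlap, and the fitted log2 fold change was -9.34 (SE 0.88, edgeR adjusted p = 0.0412). The later levels lay near the floor of 0.0645 CPM (3 counts over the later pair), so the size of the change is uncertain. In S/L it stood at 10.5 CPM with doxycycline and 55.1 CPM without, so that passages 1 and 2 lay on either side of the S/L level without doxycycline and both later libraries lay below both S/L libraries.

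Its neighbour Zscan4b had no counts in either later library, against 21.2 and 11.6 CPM at passages 1 and 2. That makes it at least 254-fold lower at a floor of 3 counts over the later pair. If both mates of a read pair were counted, 3 counts are fewer than 3 pairs, and a floor of 3 pairs would give a lower bound. The same holds for the other bounds given below. Both genes lie in the Zscan4 cluster on chromosome 7 (Zscan4c at chr7:11005745-11010547 and Zscan4b at chr7:10900740-10905050, mm10). How reads that match several copies were counted is not given in the sources used here, so the split among copies is uncertain. The windows around their starts, from 250 bases before to 50 after (RefSeq, GRCm38.p6, the build also called mm10), show how alike the copies are: over 277 aligned positions without gaps, 264 (95.3%) were equal. Zscan4c, plus strand, chr7:11005495-11005794, and Zscan4b, minus strand, chr7:10905001-10905300, are printed in lower case, since neither motif searched further on occurred in them.
Zscan4c: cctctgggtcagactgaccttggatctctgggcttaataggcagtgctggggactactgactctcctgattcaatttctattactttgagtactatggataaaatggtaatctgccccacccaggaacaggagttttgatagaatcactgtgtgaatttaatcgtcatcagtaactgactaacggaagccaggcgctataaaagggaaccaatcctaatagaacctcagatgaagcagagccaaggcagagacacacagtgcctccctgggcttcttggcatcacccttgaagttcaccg
Zscan4b: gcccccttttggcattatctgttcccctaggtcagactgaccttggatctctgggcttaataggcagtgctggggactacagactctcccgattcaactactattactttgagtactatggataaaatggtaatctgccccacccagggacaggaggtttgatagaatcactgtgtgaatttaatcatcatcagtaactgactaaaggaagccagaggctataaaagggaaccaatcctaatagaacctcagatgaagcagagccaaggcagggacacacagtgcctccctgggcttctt

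Of the 30 genes on the 2-cell list, 28 were in the table and 27 were tested. Of these, 9 fell, none rose and 18 did not pass. By level, 25 of 27 stood lower (15.4% among all genes tested) and none higher. The median log2 fold change was -6.63, or -6.42 with 3 members that had no later counts placed at their bound, against -0.06 for all genes tested. DESeq2 called 25 of the 27 lower. The median level of the list was 20.9 and 13.4 CPM at passages 1 and 2. Both were above its level in S/L, 1.61 CPM with doxycycline and 5.92 CPM without. Tdpoz1, left untested, had no counts at passages 3 and 4 and 0.429 and 0.688 CPM at passages 1 and 2.

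Tmem92, a membrane protein gene used as a 2-cell marker, had 0.0963 and 0.155 CPM at passages 3 and 4, against 68.5 and 23.1 CPM at passages 1 and 2. Usp17la, of a family of deubiquitinases, had 0.144 and 0.233 CPM, against 47.4 and 22.8 CPM. Tcstv3 had 0.193 and 0.117 CPM at passages 3 and 4, against 19.8 and 11.7 CPM at passages 1 and 2. None of the 3 overlapped between the groups (15.4% of all genes tested stood lower). Each fell, by 8.43, 7.48 and 6.64 on the log2 scale for Tmem92, Usp17la and Tcstv3.

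Zfp352, a zinc finger gene of the 2-cell embryo, had 0.481 and 0 CPM at passages 3 and 4, against 7.71 and 13.4 CPM at passages 1 and 2, and did not pass (log2 fold change -5.49, adjusted p = 0.119). Without passage 3 the later group has no counts of it, and the fitted value, which then depends on the prior count, was -11.18. Dux, which encodes the factor that switches on many 2-cell genes, had 0.0481 and 0.155 CPM, against 3.93 and 1.21 CPM, and also did not pass (adjusted p = 0.115). Arg2 and Zfp750 were the 2 tested members that did not stand apart.

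Several of the genes that fell are neighbours, an arrangement found after their values were seen. On chromosome 12, 6 of them (Gm8300, Gm1995, Gm2016, Gm2022, Gm5662 and Gm5039) lie in chr12:87514316-88321762, and all 10 tested genes of that window stood lower in the later passages. Gm8300 and Gm5039 set its ends and 6 of the 10 are the genes that fell, so this agreement is largely built in. Among all genes tested, 15.4% stood lower. Whether these neighbours share reads is not known from the sources used here. On chromosome 11, Gm11545, Tmem92 and Gm11544 lie in chr11:94755129-94849593, and these 3 were the tested genes there. Gm5039 had 0.0963 and 0.155 CPM at passages 3 and 4, against 57.6 and 21.8 CPM at passages 1 and 2. Gm11544 had no counts at passages 3 and 4, against 11 and 13.3 CPM at passages 1 and 2, and was at least 188-fold lower.

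**Figure D2:**
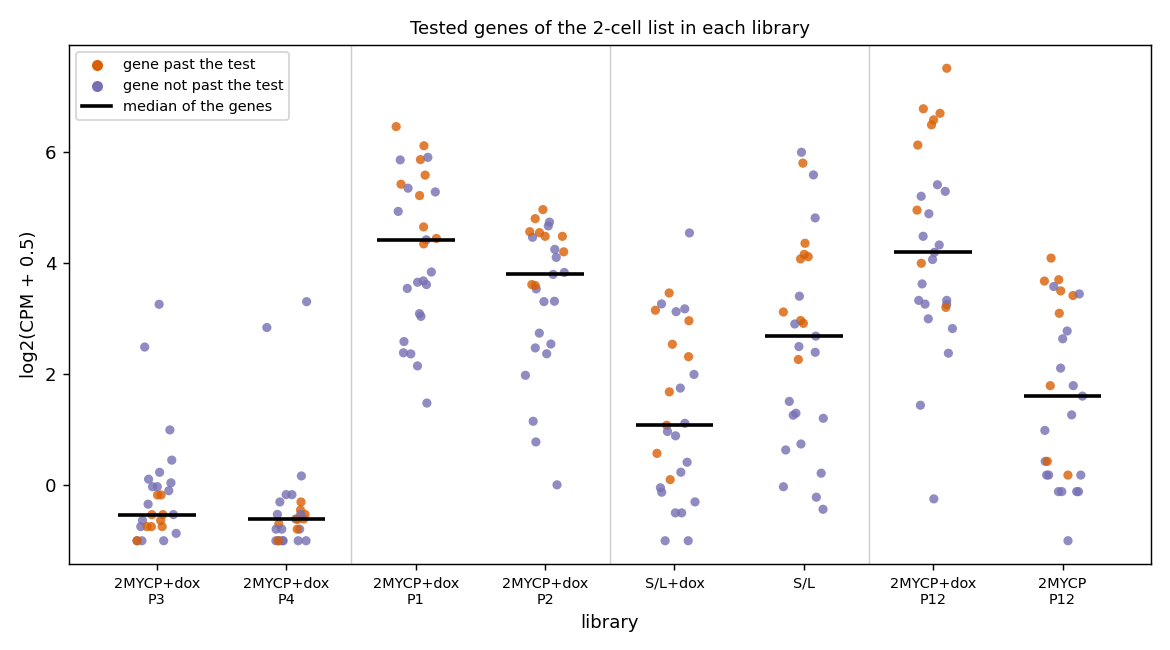
Log2(CPM + 0.5) of the 27 tested genes of the 2-cell list, 1 point a gene, in the 6 libraries and at passage 12; orange marks genes past the test and black bars the median. The median level was 0.193 and 0.155 CPM at passages 3 and 4, against 20.9 and 13.4 CPM at passages 1 and 2. It stood at 17.8 CPM at passage 12 with doxycycline, and in S/L at 1.61 CPM with and 5.92 CPM without doxycycline.

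The passage 12 libraries, in another table and with 1 library each, were read as levels. The list's median was 17.8 CPM with doxycycline and 2.54 CPM without, so the level at passage 12 with doxycycline lay near that of passages 1 and 2 and not near that of passages 3 and 4. Zscan4c stood there at 69.1 CPM with doxycycline and 16.5 CPM without, and Tcstv3 at 109 and 8.04 CPM. Pou5f1 stood at 1.22 CPM with doxycycline and 107 CPM without. The library without doxycycline was the shallowest used, at 5845083 counts. Its Pou5f1, Sox2, Nanog, Zfp42 and Esrrb summed to 309 CPM, against 3494 CPM in S/L without doxycycline. Its Cdx2, Eomes, Gata3, Tfap2c, Elf5, Hand1, Krt8 and Krt18 summed to 13597 CPM, the highest of all libraries used. All 29 genes that fell, not only those of the 2-cell list, stood higher at passage 12 with doxycycline than in both later libraries. Over all genes tested, that library's Pearson correlation was 0.941 and 0.908 with passages 1 and 2. With passages 3 and 4 it was 0.918 and 0.898. Whether the passage 12 culture descends from the passage series is not in the labels.

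Many pluripotency genes stood lower in the later passages. Of 24 genes on the core list, 23 were tested: 1 fell and none rose. Of the 23, 16 stood lower (15.4% among all genes tested) with none higher. The median log2 fold change was -2.34, and DESeq2 called 13 lower. Lin28a, which encodes an RNA-binding protein that blocks let-7 maturation, fell: it had 1.06 and 0.855 CPM at passages 3 and 4, against 76.4 and 33.0 CPM at passages 1 and 2 (log2 fold change -5.83, SE 0.61, edgeR adjusted p = 0.0412). The S/L libraries held 164 CPM with doxycycline and 244 CPM without, so the first passages were already below them.

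Nanog, a homeobox factor of the naive state, had 0.578 and 0.933 CPM at passages 3 and 4, against 44.6 and 2.20 CPM at passages 1 and 2. Passages 1 and 2 differed more from each other than passage 2 did from the later pair, and the difference did not pass (log2 fold change -4.92, adjusted p = 0.143); without passage 1 it was -1.51. Sox2, the partner of Oct4, had 3.47 and 2.80 CPM, against 11.6 and 5.66 CPM, and did not pass (adjusted p = 0.191). Zfp42 (Rex1), a naive marker, had 12.4 and 9.52 CPM, against 26.8 and 12.6 CPM, and Esrrb, an orphan nuclear receptor, had 5.10 and 2.80 CPM, against 13.1 and 4.01 CPM. The later levels of Zfp42 and Esrrb were close to those of passage 2, and neither stood apart.

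Tfcp2l1, another naive factor, came nearest to passing after Lin28a: it had 19.16 and 11.3 CPM at passages 3 and 4, against 93.1 and 139.7 CPM at passages 1 and 2 (log2 fold change -2.93, adjusted p = 0.0671). Klf4, a naive factor as well, had 142 and 175 CPM at passages 3 and 4, against 59.5 and 118 CPM at passages 1 and 2, higher in both later libraries, and did not pass (adjusted p = 0.419). Fbxo15, an F-box gene bound by Oct4 and Sox2, fell: it had 10.7 and 9.48 CPM, against 175 and 163 CPM, while S/L held 21 CPM with doxycycline and 229 CPM without (log2 fold change -4.07, SE 0.39, adjusted p = 0.0412). The 5 markers of pluripotent cells (Pou5f1, Sox2, Nanog, Zfp42 and Esrrb) summed to 21.8 and 16.8 CPM at passages 3 and 4, against 113 and 29.6 CPM at passages 1 and 2, and to 572 and 3494 CPM in S/L with and without doxycycline. The defining markers of the labelled cell type, mESC, were thus low at passages 3 and 4.

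**Figure D3:**
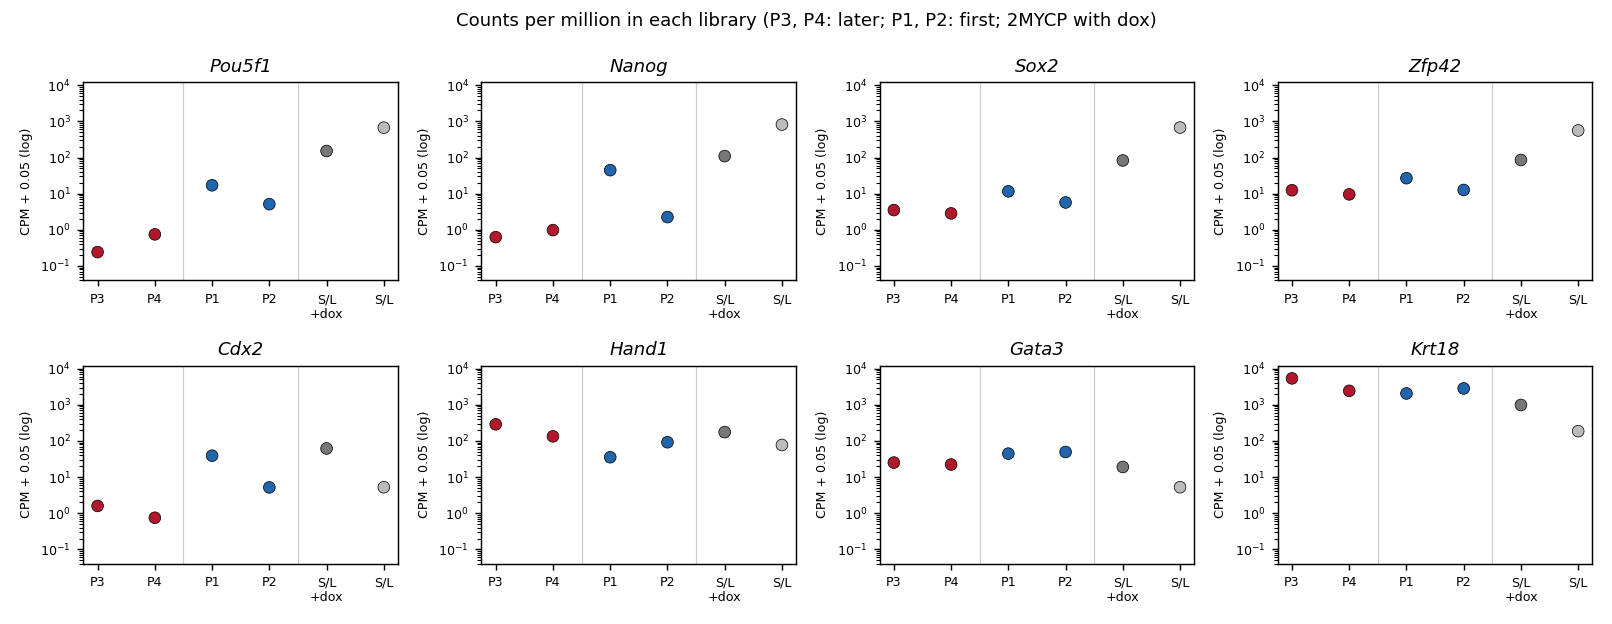
CPM + 0.05 on a log axis for 4 pluripotency genes (top) and 4 trophoblast genes (bottom), 1 point a library, with passages 3 and 4 left, passages 1 and 2 in the middle and the S/L libraries right. Pou5f1 and Cdx2 are lowest at passages 3 and 4, with Cdx2 at 1.54 and 0.700 CPM there, while Krt18 is at 2055 CPM or more in all 4 passages.

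Trophoblast genes differed in direction. Of the 23 transcription factor genes on the list, none passed the test, 10 stood lower and 3 higher in the later passages, and the median log2 fold change was -0.99. DESeq2 called 7 lower and 1 higher. Cdx2, the factor that starts trophectoderm and trophoblast stem cell fate, had 1.54 and 0.700 CPM at passages 3 and 4, against 38.9 and 5.13 CPM at passages 1 and 2, and 61.8 CPM in S/L with doxycycline (log2 fold change -4.30, adjusted p = 0.119). The value was -2.22 without passage 1 and -5.13 without passage 2. Elf3, an epithelial ETS factor, had 21.4 and 10.5 CPM, against 252 and 89.2 CPM (adjusted p = 0.0894). Gcm1, which directs syncytiotrophoblast formation, had 3.03 and 0.894 CPM, against 51.9 and 21.6 CPM (adjusted p = 0.0906). All of them were without overlap between the groups. Among all genes tested, 15.4% stood lower, so the separation alone says little.

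Hand1, which promotes giant cell differentiation, stood higher, with 287 and 134 CPM at passages 3 and 4, against 35.4 and 91.8 CPM at passages 1 and 2, and did not pass (log2 fold change 1.73, adjusted p = 0.223). Gata3 had 25.1 and 22.2 CPM, against 44.4 and 49.3 CPM, and Tfap2c, also needed in trophectoderm, had 61.2 and 32.4 CPM, against 159.6 and 96.2 CPM, with neither past the test. Eomes, a T-box factor of trophoblast stem cells, differed little, with 4.00 and 4.20 CPM at passages 3 and 4, against 4.43 and 6.92 CPM at passages 1 and 2.

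Simple epithelial keratins were abundant throughout. Krt8 had 3390.0 and 1603 CPM at passages 3 and 4, against 1641 and 2343 CPM at passages 1 and 2, and Krt18 had 5363 and 2428 CPM, against 2055 and 2827 CPM. Their groups overlapped, while the S/L library without doxycycline held 196 and 186 CPM of Krt8 and Krt18. Of the 24 epithelial genes of the trophectoderm list, 1 fell, none rose, 5 stood lower and 3 higher. The median log2 fold change was -0.08, and among all genes tested 15.4% stood lower and 9.48% higher.

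The epithelial gene that fell was Aqp8, a water channel of the trophectoderm. It had 0.289 and 0.0777 CPM at passages 3 and 4, against 64.5 and 60.2 CPM at passages 1 and 2, with 0.520 and 1.14 CPM in S/L with and without doxycycline (log2 fold change -8.42, SE 0.75, adjusted p = 0.0412). Its high level was thus seen in the first 2 passages alone among the 6 libraries. Lgals3, which encodes galectin-3, had 2057 and 1373 CPM, against 225 and 353 CPM, and did not pass (log2 fold change 2.57, adjusted p = 0.0828). Cdh1, the epithelial cadherin, had 167 and 128 CPM at passages 3 and 4, against 446 and 683 CPM at passages 1 and 2, without passing (adjusted p = 0.0995).

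Placental genes were mostly too low to test, 12 of 26 being tested. Peg10, an imprinted retrotransposon-derived gene needed for the placenta, had 2590.2 and 1143 CPM at passages 3 and 4, against 8695 and 11596 CPM at passages 1 and 2, and did not pass (adjusted p = 0.106). Car2, a carbonic anhydrase gene, had 8.09 and 4.08 CPM, against 162 and 45.0 CPM (adjusted p = 0.0847). Syna, which encodes the fusion protein syncytin-A, had 53.2 and 31.0 CPM, against 2.50 and 10.0 CPM, also without passing. On the list none passed, 5 stood higher and 3 lower (9.48% higher and 15.4% lower among all genes tested).

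Some genes on the primitive endoderm and basement membrane lists fell. Sox17, an endoderm factor, had 0.867 and 0.311 CPM at passages 3 and 4, against 63.5 and 53.5 CPM at passages 1 and 2, and fell (log2 fold change -6.65, SE 0.69, adjusted p = 0.0412). In S/L it was at 1.87 CPM with doxycycline and 7.42 CPM without. Lama1, the laminin chain of Reichert's membrane and other early basement membranes, had 0.818 and 0.233 CPM at passages 3 and 4, against 179 and 450.4 CPM at passages 1 and 2 (log2 fold change -9.25, SE 0.90, adjusted p = 0.0412). Nid2, which links laminin to collagen IV, had 5.05 and 6.14 CPM, against 107 and 126 CPM (log2 fold change -4.38, SE 0.41, adjusted p = 0.0412). None of the 3 overlapped (15.4% of all genes tested stood lower). Lama1 was also expressed in TC1 cells that held Pou5f1, as given below.

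Srgn, a secretory granule proteoglycan gene on the primitive endoderm list, also fell, with 1.06 and 1.17 CPM, against 30.6 and 25.8 CPM. Of the 18 genes on that list, 2 fell, none rose, and 11 stood lower with none higher (median log2 fold change -1.34). Gata6, which starts the lineage, had 10.5 and 10.1 CPM at passages 3 and 4, against 30.4 and 33.3 CPM at passages 1 and 2, and did not pass (adjusted p = 0.137). Sox7 had 3.80 and 2.45 CPM, against 0.714 and 3.09 CPM, and its groups overlapped. Of 16 basement membrane genes, 2 fell, 7 stood lower and 2 higher (15.4% lower and 9.48% higher among all genes tested). Visceral endoderm genes were tested in 8 of 17 cases, none passed, and 1 stood lower.

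Some genes that fell belong to no list. Cyp26a1, which breaks down retinoic acid, had 0.193 and 0.389 CPM at passages 3 and 4, against 26.1 and 29.1 CPM at passages 1 and 2. Zbtb16, a zinc finger repressor known from germline stem cells, had 0.289 and 0.311 CPM, against 19.07 and 12.8 CPM. Ticrr, needed to start DNA replication, had 3.75 and 4.51 CPM, against 56.5 and 45.1 CPM, and Pga5, a pepsinogen gene, had 0.0963 and 0.0777 CPM, against 15.2 and 8.23 CPM. These 4 had no overlap between the groups (15.4% of all genes tested stood lower).

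Interferon-induced genes stood higher in the later passages. Isg15, a ubiquitin-like modifier, had 55.2 and 107 CPM at passages 3 and 4, against 0.857 and 1.79 CPM at passages 1 and 2, and rose (log2 fold change 5.88, SE 0.65, adjusted p = 0.0438). Usp18, which removes Isg15 from proteins, had 34.8 and 75.4 CPM, against 1.29 and 1.63 CPM (log2 fold change 5.22, SE 0.60, adjusted p = 0.0453). Irf7, a transcription factor that amplifies the response, had 52.9 and 117 CPM at passages 3 and 4, against 2.57 and 2.96 CPM at passages 1 and 2 (log2 fold change 4.94, SE 0.58, adjusted p = 0.0453). In the S/L library with doxycycline Isg15 stood at 20.6 CPM, and without doxycycline at 68.7 CPM, between the 2 later values. Isg15 did not pass with the gene length trend removed, at a log2 fold change of 5.46 (adjusted p = 0.0644). Among genes of at least 5 CPM, Usp18 and Irf7 did not pass, at 5.17 and 4.88 (adjusted p = 0.0515 for both).

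On the list of 26 interferon-induced genes, 3 rose and none fell. Of the 26, 23 stood higher with 1 lower (9.48% higher and 15.4% lower among all genes tested). The median log2 fold change was 2.70, and DESeq2 called 20 higher and 1 lower. Ifit1, which binds foreign RNA, had 24.6 and 87.5 CPM at passages 3 and 4, against 0.50 and 1.05 CPM at passages 1 and 2, and did not pass (adjusted p = 0.0569). B2m, the invariant chain of MHC class I, had 882 and 1647 CPM, against 165 and 227 CPM (adjusted p = 0.0828), and H2-K1, a class I heavy chain gene, had 363 and 656 CPM, against 76.5 and 48.6 CPM (adjusted p = 0.0685). The member that stood lower was Ifitm1, a gene also expressed in early embryos, with 0.722 and 0.622 CPM at passages 3 and 4, against 37.8 and 1.79 CPM at passages 1 and 2. Within the later pair, passage 4 had the higher level in 25 of the 26.

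**Figure D4:**
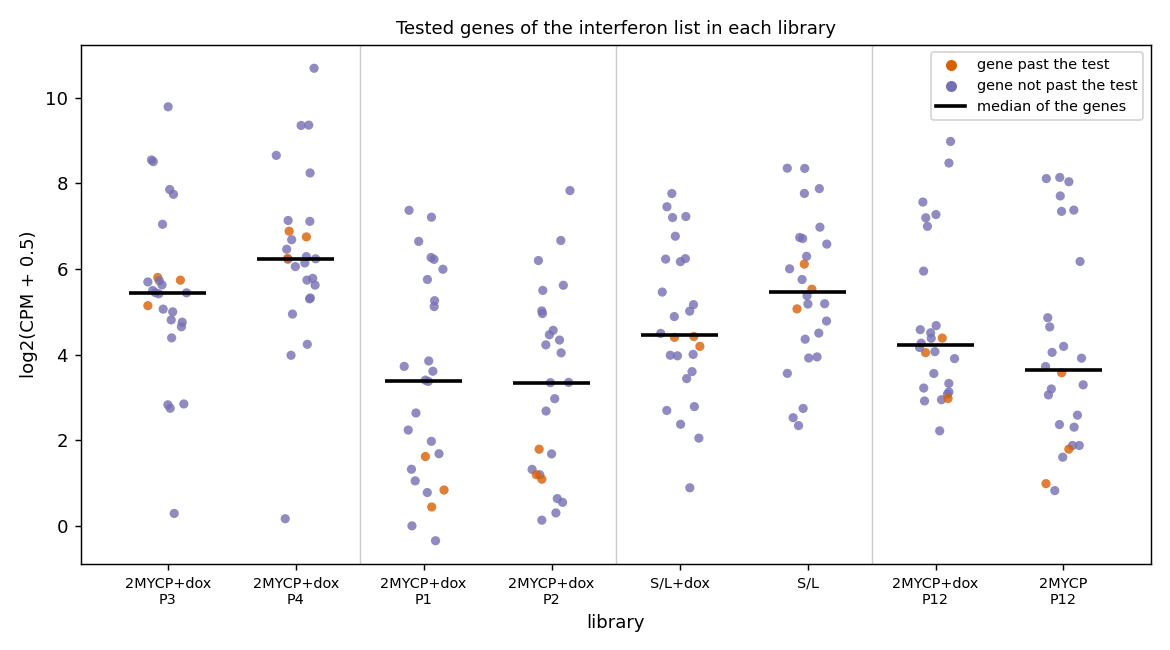
Log2(CPM + 0.5) of the 26 tested genes of the interferon list, 1 point a gene, in the 6 libraries and at passage 12; orange marks genes past the test and black bars the median. The median level was 43.0 and 75.1 CPM at passages 3 and 4, against 9.96 and 9.67 CPM at passages 1 and 2, with 21.5 and 43.3 CPM in S/L with and without doxycycline.

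Ccl2 had 338 and 316 CPM at passages 3 and 4, against 6.28 and 8.96 CPM at passages 1 and 2, and rose (log2 fold change 5.42, SE 0.44, adjusted p = 0.0412). Ccl7, beside it on chromosome 11, had 250.5 and 238 CPM, against 12.3 and 14.8 CPM (log2 fold change 4.17, SE 0.40). Cxcl1 had 119 and 91.0 CPM at passages 3 and 4, against 2.36 and 1.05 CPM at passages 1 and 2 (log2 fold change 5.99, SE 0.60). Cxcl5, on chromosome 5 like Cxcl1, had 110.1 and 98.8 CPM, against 2.86 and 3.74 CPM (log2 fold change 4.98, SE 0.45). The adjusted p was 0.0412 for Ccl7, Cxcl1 and Cxcl5 as well, and the 4 chemokines did not pass with passage as a number (adjusted p 0.0737 for Ccl2 and Ccl7, 0.13 for Cxcl1 and 0.0791 for Cxcl5). With the gene length trend removed Ccl7 did not pass either (adjusted p = 0.0613), at a log2 fold change of 3.83. In S/L all 4 were also expressed, Ccl2 at 134 CPM with doxycycline and 125 CPM without, so that the first passages were the low ones among the 6 libraries. At passage 12 Ccl2 stood at 459 CPM with doxycycline and 107 CPM without.

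Cxcl2, the neighbour of Cxcl1, had 9.92 and 5.95 CPM at passages 3 and 4 and no counts at passages 1 and 2, which is at least 152-fold higher, and did not pass (adjusted p = 0.0569). It was named after its values were seen.

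Of the 8 genes that rose, 3 had a start window in the RefSeq table used (GRCm38.p6, 250 bases before to 50 after the start), namely Isg15, Cxcl1 and Irf7. The windows of the first pair are shown because each holds letters of the motif known for its pathway, in capitals: GAAA, any 2 bases and GAAA, a core of the interferon-stimulated response element, and GGG, any 2 bases and TTTCC, a form of the NF-kB site, both searched on both strands. Isg15, minus strand, chr4:156200769-156201068, holds 3 overlapping matches to the first and none to the second. Cxcl1, plus strand, chr5:90890995-90891294, holds 2 matches to the second and none to the first.
Isg15: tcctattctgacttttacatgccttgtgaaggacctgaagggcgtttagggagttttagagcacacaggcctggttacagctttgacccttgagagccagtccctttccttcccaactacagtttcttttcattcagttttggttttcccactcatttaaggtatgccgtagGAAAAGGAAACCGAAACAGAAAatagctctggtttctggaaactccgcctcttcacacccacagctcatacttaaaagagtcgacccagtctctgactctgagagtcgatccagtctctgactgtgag
Cxcl1: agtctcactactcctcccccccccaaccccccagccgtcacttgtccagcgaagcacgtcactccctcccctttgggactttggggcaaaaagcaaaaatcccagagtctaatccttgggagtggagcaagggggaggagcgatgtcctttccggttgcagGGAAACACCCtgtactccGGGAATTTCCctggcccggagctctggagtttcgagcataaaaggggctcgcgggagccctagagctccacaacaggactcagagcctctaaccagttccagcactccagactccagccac
Irf7 holds neither motif in its window. Of 32544 promoters of the same length, 3.45% hold the first motif and 1.61% the second.

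Fibroblast markers, which would also mark feeder cells, stood higher in part. Dcn had 328 and 228 CPM at passages 3 and 4, against 7.78 and 13.6 CPM at passages 1 and 2, and rose (log2 fold change 4.69, SE 0.50, adjusted p = 0.0427). Of the 22 fibroblast genes, all tested, 1 rose and none fell. Of the 22, 7 stood higher (9.48% among all genes tested) with none lower (median log2 fold change 0.57). Their summed level was 2156 and 2976 CPM at passages 3 and 4, against 864 and 2463 CPM at passages 1 and 2, and 2972 and 1615 CPM in S/L with and without doxycycline, with none of the 22 at 0. Twist2, a mesenchymal factor, had 143 and 169 CPM, against 33.9 and 49.0 CPM (adjusted p = 0.0995). Col1a1, the most abundant fibroblast collagen, had 195 and 337 CPM at passages 3 and 4, against 156 and 401 CPM at passages 1 and 2, and overlapped. The sum at passage 2 lay between those of passages 3 and 4, but its members differed. Dcn and Twist2 were lower at passage 2 than in either later library, and Col1a1 was higher. Of the 22 genes, 15 did not stand apart. The part of such cells in the chemokine and interferon values was not tested. In bulk samples, more cells of a type and more RNA per cell cannot be told apart.

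Of 5 markers of macrophages and blood, Hba-a1 and Hbb-bs had no counts in these libraries and Ptprc stood at 0.289 and 0 CPM at passages 3 and 4, against 0.143 and 0 CPM at passages 1 and 2. Csf1r, which giant cells of the mouse placenta also express, had 64.9 and 40.7 CPM, against 3.86 and 12.4 CPM, and Cd68 had 202 and 106 CPM, against 73.4 and 72.6 CPM. Neither passed.

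Genes of the cell cycle stood lower in the later passages. On a list of 29, none passed, and 17 stood lower and 1 higher (15.4% lower and 9.48% higher among all genes tested). The median log2 fold change was -1.45, with 15 lower and 1 higher by DESeq2. Bub1, of the spindle checkpoint, had 3.13 and 4.39 CPM at passages 3 and 4, against 32.4 and 28.0 CPM at passages 1 and 2 (log2 fold change -3.00, adjusted p = 0.0569). Ccnb1, the mitotic cyclin B1, had 11.5 and 11.7 CPM, against 91.4 and 61.2 CPM (adjusted p = 0.0582). Mcm7, of the replicative helicase, had 44.4 and 48.6 CPM, against 408 and 101.4 CPM, and Pcna, the replication clamp, had 94.9 and 127 CPM at passages 3 and 4, against 166 and 98.0 CPM at passages 1 and 2, with overlap. In S/L Bub1 stood higher still, at 141 CPM with doxycycline and 99.0 CPM without.

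Cdkn2a, which encodes the inhibitors p16 and p19, was the member that stood higher, with 186 and 129.7 CPM, against 40.6 and 40.1 CPM (adjusted p = 0.0944). Of 24 p53 target genes none passed, 5 stood higher and none lower (median log2 fold change 0.30). Among all genes tested, 9.48% stood higher and 15.4% lower. Cdkn1a, the inhibitor p21, had 1463 and 1382 CPM at passages 3 and 4, against 654 and 726 CPM at passages 1 and 2, and did not pass (log2 fold change 1.04, adjusted p = 0.216). Gdf15, a secreted stress factor, had 85.9 and 96.0 CPM, against 35.8 and 22.6 CPM (adjusted p = 0.130), and Mdm2, the p53 ubiquitin ligase, had 1217 and 1345 CPM, against 418 and 628 CPM (adjusted p = 0.173).

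Of 24 stress response genes tested, none passed, 9 stood higher and 1 lower (median log2 fold change 0.69). The shares among all genes tested were 9.48% higher and 15.4% lower. Ddit3 (CHOP), a factor induced by the integrated stress response, had 322 and 413 CPM at passages 3 and 4, against 59.6 and 57.8 CPM at passages 1 and 2, and 8.26 and 16.6 CPM in S/L with and without doxycycline (log2 fold change 2.65, adjusted p = 0.0569). Chac1, which degrades glutathione, had 39.6 and 55.6 CPM, against 8.43 and 10.2 CPM (adjusted p = 0.0884). The amino acid synthesis genes Asns and Psat1 did not stand apart.

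Among DNA methylation genes 1 of 14 tested fell, none rose, and 6 stood lower (15.4% among all genes tested). Tet1, which oxidises methylcytosine, had 2.50 and 2.95 CPM at passages 3 and 4, against 36.4 and 76.9 CPM at passages 1 and 2, and fell (log2 fold change -4.37, SE 0.53, adjusted p = 0.0479), though not with halved counts (-4.38, adjusted p = 0.0502) or among genes of at least 5 CPM (-4.42, adjusted p = 0.0515). Dnmt3b, a de novo methyltransferase, had 5.58 and 2.99 CPM, against 65.8 and 39.7 CPM, and did not pass (adjusted p = 0.0569). Both were highest in S/L, Tet1 at 177 CPM with doxycycline and 208 CPM without. Germline genes showed 18 of 23 lower and 1 higher (15.4% lower and 9.48% higher among all genes tested) with none past the test. Meioc, a meiosis gene, had 1.06 and 1.17 CPM, against 7.0 and 15.4 CPM (adjusted p = 0.0892), and Dmrt1, a sex determination factor, had 0.0963 and 0 CPM, against 17.2 and 1.42 CPM (adjusted p = 0.104).

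Of 18 Wnt target genes none passed, 9 stood lower and 1 higher (15.4% lower and 9.48% higher among all genes tested). Axin2, a feedback inhibitor of the pathway, had 13.1 and 16.1 CPM at passages 3 and 4, against 115 and 85.5 CPM at passages 1 and 2 (log2 fold change -2.78, adjusted p = 0.0593). Sp5, another direct target, had 0.385 and 0.311 CPM, against 17.1 and 3.58 CPM (adjusted p = 0.0952). The axis gene T was listed at 0.193 and 0 CPM, against 0 and 0.160 CPM, and was too low to test. Fgf5, of the formative epiblast, had 0.770 and 0.544 CPM, against 0 and 0.527 CPM, and Otx2, of the same state, had 0.578 and 0.0777 CPM, against 1.71 and 1.12 CPM, with neither past the test.

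None passed among formative, mesoderm, neural, spliceosome, imprinted, glycolysis, cholesterol, respiratory chain, ribosomal protein, Hippo and growth factor lists. Respiratory chain genes (26 tested) and ribosomal protein genes (28 tested) had no member that stood apart in either direction, with medians of 0.03 and -0.30. The median ribosomal protein level was 1723 and 535 CPM at passages 1 and 2, on either side of 964 and 819 CPM at passages 3 and 4. For the respiratory chain it was 156 and 73.6 CPM, around 137 and 114 CPM. Genes split in this way cannot stand apart, so the absence does not show stable levels.

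**Figure D5:**
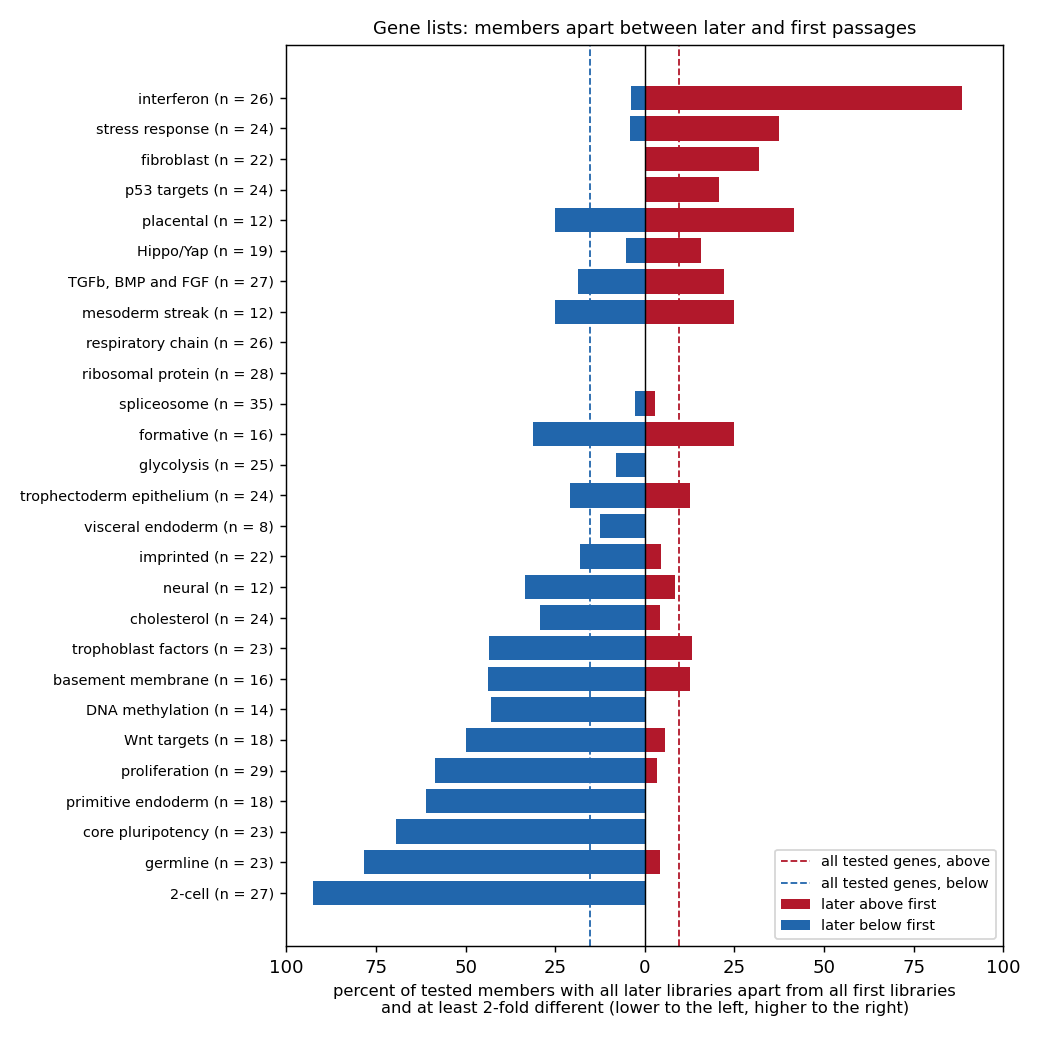
Share of the tested members of each list that stood apart, with both later libraries above (red, right) or below (blue, left) both first libraries and at least 2-fold different; n is the number tested. Dashed lines mark all tested genes, 9.48% higher and 15.4% lower; the 2-cell list (25 of 27 lower) and the interferon list (23 of 26 higher) lie at the ends.

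TC1 cells carried in the same medium without doxycycline held Pou5f1 at 1140.1 and 1048 CPM at passages 4 and 6, against 981 and 1165 CPM at passages 1 and 2, and the difference between the changes was tested over 8 libraries. Line, table and agent differ together between the series, so they cannot be told apart, and the TC1 libraries compare passages 4 and 6 with 1 and 2. The change in ZHBTc4 minus that in TC1 was positive in 1 of 16454 genes (0.00608%) and negative in 121 (0.735%). The 4 ZHBTc4 libraries are those of the comparison above, so the sets of calls are not independent. Zscan4c stood at 56.6 and 60.4 CPM in TC1 at passages 4 and 6, against 39.2 and 62.4 CPM at passages 1 and 2, and the changes differed by -9.53 on the log2 scale (edgeR adjusted p = 0.0058). Lama1 had 291 and 527 CPM in TC1 at passages 4 and 6, against 151 and 289.8 CPM at passages 1 and 2, a difference of -10.14 (adjusted p = 0.00816). Fbxo15 and Nid2 were likewise among the 121.

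The gene with a positive difference was Ddit3, at 19.8 and 17.6 CPM in TC1 at passages 4 and 6, against 15 and 13.1 CPM at passages 1 and 2 (difference 2.24, adjusted p = 0.0385). With passages 1, 2 and 4 and passage as a block it did not pass (adjusted p = 0.455), at a difference of 2.39, nor with TC1 passage 4 alone as the later group (2.21, adjusted p = 0.191). Lmx1a, a homeobox factor known from the developing brain, had no counts at passages 3 and 4 of ZHBTc4 with doxycycline, against 21.8 and 4.68 CPM at passages 1 and 2, at least 205-fold lower. In TC1 it stood at 6.84 and 8.08 CPM at passages 4 and 6, against 5.78 and 6.11 CPM at passages 1 and 2. Bub1 and Ccnb1, which did not pass in ZHBTc4 alone, had differences of -3.07 (adjusted p = 0.0215) and -2.64 (adjusted p = 0.0287). For Ccl2 the difference was 4.73 (adjusted p = 0.0710), with 136 and 77.5 CPM in TC1 at passages 4 and 6, against 20.3 and 112 CPM at passages 1 and 2. For Isg15 it was 3.55 (adjusted p = 0.279), and neither passed. Of the 28 genes of the 2-cell list tested here, 15 were negative, and of the 26 interferon genes none passed. Without passage 3 or passage 4 of ZHBTc4, or without passage 1 or passage 2 of TC1, no gene passed, at 1864, 1639, 1766 and 1742 genes with an unadjusted p under 0.05, while DESeq2 with all libraries called 1155.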

How the data were processed

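The authors deposited raw counts per gene symbol, and per the submitters' processing notes they used Trimmomatic, HISAT2 and featureCounts with the builds mm10 and hg38; versions, annotation and treatment of multiply matching reads are not given in the sources used here. Per the labels, libraries were made with a Vazyme kit. Of 18 tables, 3 were used, with every column mapped by title (0 unmapped). The 26 genes whose names had turned into dates (0.121% to 0.211% of counts) were left out, leaving 24958. Depth ran from 5845083 to 42335106 counts per library. Low counts were even in 69.3% to 86.5% of cases, as when both mates are counted, so halved counts were tried.

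The main test was the quasi-likelihood test of edgeR 4.0.16 (R 4.3.3) after TMM scaling, on genes kept by filterByExpr, with p-values adjusted by Benjamini-Hochberg over all genes tested and a threshold of 0.05. The 6 libraries shared one fit with 2 residual degrees of freedom, and the S/L libraries entered no contrast. CPM are on a TMM scale common to the tables. The interaction with TC1 used 8 libraries. DESeq2 1.42.0 was an alternative, and the scripts were tested on simulated data.

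The members and the 27 gene lists (600 genes, 594 present) were chosen with earlier results of these data known. Named genes were 24 set genes, up to 4 per direction and list among those past the test (where fewer than 2 passed, the 2 with the smallest p), and the 10 per direction with the largest change among those past the test at 5 CPM or more, gene models left out; in the interaction, 5 per direction. Other genes named were chosen after their values were seen. Gene positions come from RefSeq on GRCm38.p6. Alternatives, among them a gene length correction chosen after seeing the data, are given below.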

Additional observations from a re-analysis of the deposited data

Results flagged for a closer look

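The passage change differed between ZHBTc4 with doxycycline and TC1 cells, by a test of the difference itself, in 122 genes. By the naming rule the ones with the largest negative differences (log2, change in ZHBTc4 with doxycycline minus change in TC1) were Zscan4b at -11.87, Lmx1a at -11.83, Lama1 at -10.14, Zscan4c at -9.53 and Aqp8 at -9.09, and Ddit3 was the positive one at 2.24. Ddit3 did not pass with passage as a block (2.39, adjusted p = 0.455) or with TC1 passage 4 alone (2.21, adjusted p = 0.191). Zscan4b and Lmx1a had no counts at passages 3 and 4, so their fitted differences depend on the prior count and are no bound. The series differ in line, table, agent and sampled passages together, which cannot be told apart.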

How the results depend on the processing

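The 37 genes called between later and first passages became 38 with DESeq2 size factors, 46 with the 4 passage libraries alone, 27 at a mean of 5 CPM or more, 29 with halved counts and 37 with a 2-fold minimum. The count moved to 1074 with no filter, 1324 with the DESeq2 Wald test, 219 with passage as a number (10 of the 37 kept) and 73 with the gene length trend removed (32 kept; Ccl7, Gm11544, Gm11545, Isg15 and Ticrr lost). Leaving out 1 library gave 108 to 6497 calls: 162 without passage 3 (35 of the 37 kept), 108 without passage 4 (32 kept), and 3865 without passage 1 and 6497 without passage 2 (37 kept in both); the lone library is then assumed to vary like the other pair. Ticrr and Srgn were lost without either later library. For the difference from TC1, the 122 calls moved to 9 with TC1 passage 4 alone as the later group, 1155 with the DESeq2 Wald test, and 0 to 2801 when 1 library was left out. The direction of Col1a1 reversed with passage as a number (0.20), with the length trend removed (0.044) and without passage 3 (0.28), and ranged from -0.59 to 0.78 with 1 library left out; Krt8 ranged from -0.30 to 0.77. For later against first passages the alternatives were fitted over all genes kept in each, but read gene by gene for the 37 called genes and 21 set genes. Among these no other gene reversed. With passage as a number the values are changes per passage. Reversals of other named genes were not looked for in that comparison. The cause of these moves was not tested.

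No paired analysis was possible for later against first passages because the groups share no passage number. For the difference from TC1, passages 1, 2 and 4 with passage as a replicate block gave 192 calls, 81 of them among the 122; Ddit3 did not pass (2.39, adjusted p = 0.455). Depth limits genes under about 0.0645 CPM in the later pair (3 counts over both), and 2 residual degrees of freedom limit the rest.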

Other observations

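Serpinb9e, of a family of granzyme inhibitors with close copies that may share reads, had 97.1 and 67.8 CPM at passages 3 and 4, against 2.21 and 4.93 CPM at passages 1 and 2, and did not pass (edgeR quasi-likelihood test, adjusted p = 0.0558). It stood at 0.728 and 0.361 CPM in S/L with and without doxycycline. Lcn2, an iron-trapping lipocalin gene, had 115 and 84.7 CPM, against 1.0 and 0 CPM, Mmp13, a collagenase gene, had 661 and 432 CPM, against 2.29 and 18.1 CPM, and C3, of complement, had 46.6 and 34.5 CPM, against 1.86 and 0.779 CPM. Kit, the receptor of stem cell factor, stood lower, with 1.25 and 0.544 CPM at passages 3 and 4, against 15.9 and 34.4 CPM at passages 1 and 2. None of these passed, and each was picked after its values were seen.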
